A study of Mus musculus with 12 samples.

Results

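Gene expression was compared between the hippocampus of mice labelled mutant and of mice labelled control, at rest, that is 1 h after an injection of saline. The comparison took the 3 labelled mutant and the 3 control saline arrays, 6 of the 12 arrays in the series, and every probe set that read over 4 on the log2 scale on 3 or more of the 12 arrays, which were 6334 of 12411 probe sets. Differences were taken between group means and also within each replicate number, since the groups share the numbers 1, 2 and 3. The other 6 arrays came from mice of both genotypes killed 1 h after 20 mg/kg kainate, an agonist of ionotropic glutamate receptors that causes seizures, given into the peritoneum. They share no array with the saline comparison and are used here as a second measurement of the genotype difference.

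The mutation is the loss of CREB and CREM, per the series title. The labels call the animals mutant or control and give no allele, strain, driver of a recombinase or cell type of the deletion. Controls and mutants were males and females from shared litters, 5 to 6 weeks old, which were kept in single cages and handled for 5 days. Each array carried hippocampal RNA pooled from 3 animals, so no array measures a single mouse, and the sex of the animals in a pool is not given. Kdm5d, a histone demethylase gene of the Y chromosome, had log2 values of 5.92, 3.55 and 4.90 in control saline arrays and of 3.93, 3.12 and 4.33 in labelled mutant saline arrays. Its groups overlapped, and its level differed more between pools of the same genotype than between the group means. Within each of the 3 numbers, however, the labelled mutant array was the lower one. Whether the share of males in the pools differed between genotypes was not tested.

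CREB and CREM are leucine zipper transcription factors that bind the cAMP response element, a short palindrome found in many promoters. Kinases activated by cAMP, calcium or growth factors phosphorylate them, after which coactivators such as CBP, p300 and the CRTC proteins are recruited. In the hippocampus they are known for roles in neuronal survival, synaptic plasticity and memory, and CREM is known to take over part of the function of CREB where CREB is lost.

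Because the comparison is about factors that bind this element, the stretches of promoter that hold it are shown for genes that were lower in labelled mutant arrays. Windows of 250 bases before to 50 bases after the annotated start were taken from RefSeq on GRCm38.p6 and searched on both strands for the full element, TGACGTCA, and for its short form, TGACG or CGTCA, which is also part of the full element. Fahd2a, a fumarylacetoacetate hydrolase family gene, and Snapc5, a subunit of the complex that activates small nuclear RNA genes, hold the full element just before the start. Coq2, the prenyltransferase of ubiquinone synthesis, and Zdhhc3, a Golgi palmitoyltransferase, hold the short form. The windows run 5′ to 3′ on the strand of the gene and the capitals mark the match.
Fahd2a, chr2:127444566-127444625, minus strand, match begins 23 bases before the start: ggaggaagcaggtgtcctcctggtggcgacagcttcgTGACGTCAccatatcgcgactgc
Snapc5, chr9:64179237-64179296, plus strand, match begins 21 bases before the start: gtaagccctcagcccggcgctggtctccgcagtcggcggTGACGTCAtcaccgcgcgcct
Coq2, chr5:100674257-100674316, minus strand, match begins 17 bases before the start: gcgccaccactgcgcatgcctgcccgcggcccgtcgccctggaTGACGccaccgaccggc
Zdhhc3, chr9:123113195-123113254, minus strand, match begins 7 bases before the start: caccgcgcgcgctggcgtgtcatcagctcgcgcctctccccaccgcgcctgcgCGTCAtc

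The saline arrays of replicate number 1 stood apart from those of numbers 2 and 3. Arrays of the same number correlated at 0.988, 0.991 and 0.983 between genotypes over the tested probe sets, whereas the number 1 control array correlated at 0.956 and 0.960 with the other control arrays. Within numbers 2 and 3 there was no such gap: the control arrays of these numbers correlated at 0.990 with each other and the labelled mutant arrays at 0.989. Glul, the glutamine synthetase of astrocytes, shows how far number 1 stood apart. Its probe set 117285_g_at read 7.51 and 7.43 in the control and labelled mutant arrays of number 1, and between 12.1 and 12.5 in the saline arrays of numbers 2 and 3. Differences between genotypes within a number had a standard deviation over probe sets of 0.278, 0.243 and 0.343 on the log2 scale in numbers 1, 2 and 3. The difference between control arrays 2 and 3 had one of 0.260, and that between labelled mutant arrays 2 and 3 one of 0.268. Over the whole transcriptome measured here, the genotype difference in numbers 1 to 3 was thus about as wide as the difference between pools of the same genotype in numbers 2 and 3. Replicates are called biological in the titles, and what a number stands for is not given. The mean of the spike-in control probe sets was 7.90, 9.31 and 9.80 in control saline arrays 1 to 3. In the labelled mutant saline arrays it was 8.09, 10.1 and 9.33, so number 1 was the lowest of both groups. What sets number 1 apart was not tested. RNA measures were similar in both groups, with the 3′ minus 5′ difference of the actin control probe sets at 1.51 to 1.82 in control and 1.62 to 1.71 in labelled mutant saline arrays.

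The targeted genes were examined first. Creb1 (probe set 162754_at) had log2 values of 7.58, 7.51 and 6.94 in control arrays and of 8.33, 8.26 and 8.10 in labelled mutant arrays, in the order of the replicate numbers. The labelled mutant arrays were the higher ones in every number and the groups did not overlap. The difference was 0.89, or 1.85-fold, with a standard error (SE) of 0.229, and it did not pass after adjustment over the tested probe sets (limma, adjusted p = 0.523, or 0.0751 when the replicate number was a block). After kainate the same probe set was 0.99 higher in labelled mutant arrays. The direction goes against the label, and the labels do not say which exons were removed or which the probes cover, so the probe set does not check the label, and "labelled mutant" is the term kept for these arrays. Crem (110152_at) was near background in all 6 arrays, at 2.94, 3.02 and 2.82 in control and 2.97, 2.98 and 3.25 in labelled mutant arrays, and it did not reach the level at which probe sets were tested.

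Genes next to the targets on the chromosome were looked at because they are inherited together with an engineered allele. The 20 tested genes nearest to Creb1, 10 on each side, differed by -0.40 to 0.18, and 1 of them had an unadjusted p under 0.05 without the block and 3 with it, beside 3.88% and 9% of all tested probe sets. The 10 tested genes on 1 side of Crem differed by -0.62 to 0.31, and none of them had an unadjusted p under 0.05, against 1 when the block was used.

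With all 12 arrays in 1 limma fit without the block, no probe set passed an adjusted p of 0.05 for labelled mutant against control with saline (0 of 6334, percent called 0). At an unadjusted p under 0.05 there were 246 probe sets, 3.88% of those tested, of which 91 were higher (1.44%) and 155 lower (2.45%) in labelled mutant arrays. At an unadjusted p under 0.01 there were 74, 1.17%, of which 16 were higher (0.253%) and 58 lower (0.916%). When the replicate number entered the fit as a block, 9 probe sets of 8 genes passed, 0.142% of those tested, with 8 lower (0.126%) and 1 higher (0.0158%). The 8 that were lower belong to Tspyl3, Zdhhc3 with 2 probe sets, Fahd2a, Smim19, Bcl11b, Tmem200a and Nbdy, and the 1 that was higher to Thbs4. When the arrays were quantile normalized, Tspyl3 alone of the 9 passed with the block.

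Group means differed by over 2-fold for 14 probe sets, 0.221% of those tested, and without overlap for 5 higher (0.0789%) and 8 lower (0.126%). The labelled mutant and control values did not overlap for 558 probe sets (8.81%), 284 higher (4.48%) and 274 lower (4.33%). The difference had the same sign in all 3 replicate numbers for 2072 (32.7%), 1025 higher (16.2%) and 1047 lower (16.5%). The surplus of lower over higher probe sets was seen among the small p-values and not among all tested probe sets, 55.3% of which had a difference above 0. The balance over all probe sets depended on the filter on low values. Their median difference was 0.0236 with the filter used here, 0.0919 with no filter and -0.0209 with a filter over 6. The share above 0 set beside the gene lists below rests on the same filter. Within single numbers, 15, 10 and 14 probe sets were over 2-fold higher in numbers 1, 2 and 3, and 30, 12 and 55 were over 2-fold lower. The 3 sets of within-number differences correlated with one another over probe sets at r = 0.326 for numbers 1 and 2, 0.257 for 1 and 3 and 0.188 for 2 and 3 (Spearman 0.256, 0.233 and 0.102), a description over probe sets, which are not independent replicates and share the GCRMA processing.

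**Figure D1:**
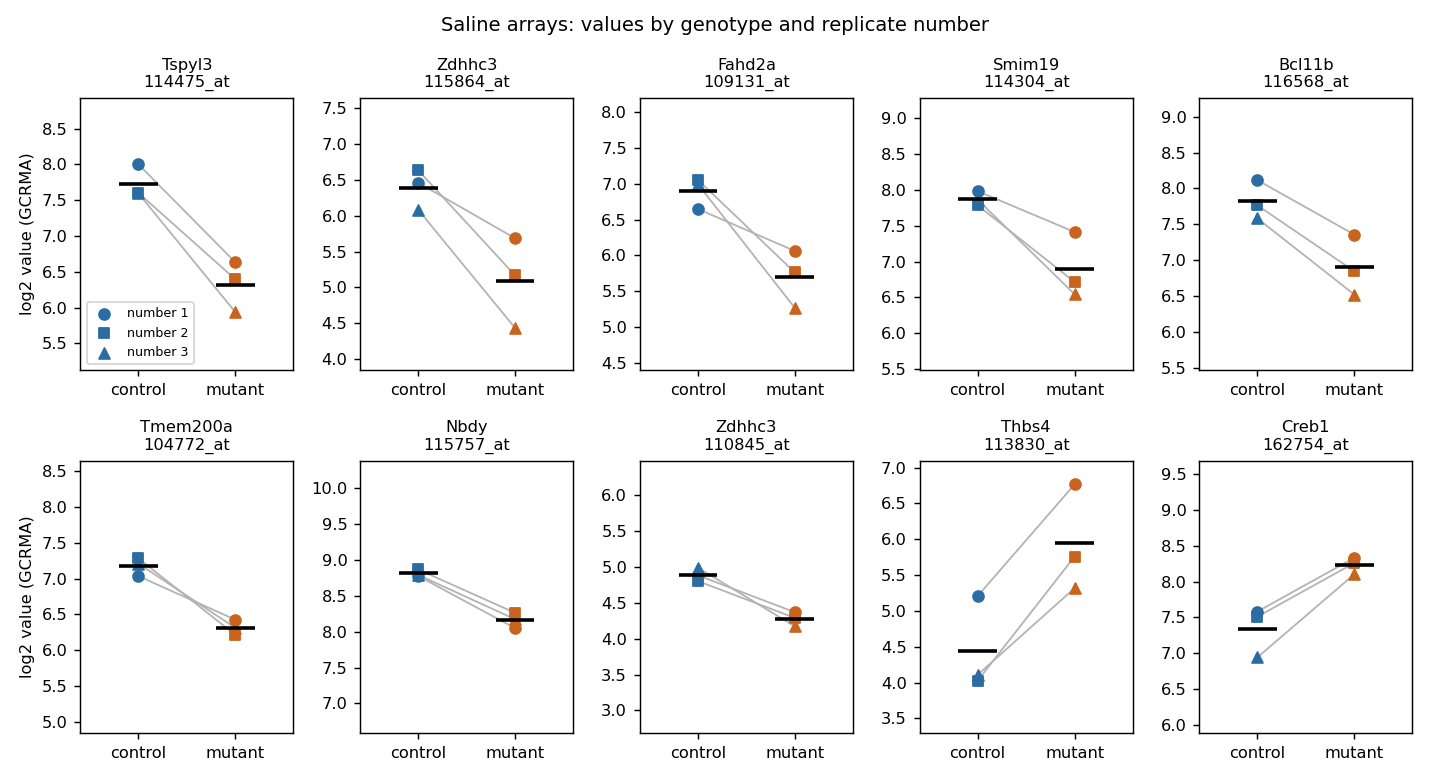
Log2 values (GCRMA) of the 9 probe sets that passed when the replicate number was a block, and of Creb1, in the 3 control (blue) and 3 labelled mutant (orange) saline arrays. Marker shapes give the replicate number, grey lines join arrays of the same number, and black bars are group means; every panel spans the same number of log2 units, and in every panel the groups do not overlap.

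With the block, Tspyl3 had the smallest p-value. This gene, a member of the TSPY-like family related to nucleosome assembly proteins, read 8.0, 7.60 and 7.59 in control and 6.63, 6.40 and 5.94 in labelled mutant arrays. Every labelled mutant array was more than 2-fold below the control array of its number. The mean fell by 1.41, from 7.73 ± 0.232 to 6.32 ± 0.354 (SD, n = 3 arrays each), or 2.66-fold, with an adjusted p of 0.0015 with the block and 0.143 without it.

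Bcl11b, a zinc finger transcription factor of hippocampal and cortical projection neurons, read 8.12, 7.76 and 7.58 in control and 7.36, 6.85 and 6.52 in labelled mutant arrays (probe set 116568_at). The groups did not overlap, and the difference was similar in the 3 numbers, at -0.76, -0.92 and -1.06. It fell by 0.91, or 1.88-fold (limma adjusted p = 0.0423 with the block, 0.458 without). Its other probe sets were lower in level: 117168_at was 0.49 lower in labelled mutant arrays with values that did not overlap, and 109517_at, which is close to the limit for testing, differed by 0.04 and overlapped. Neither of these passed, so the fall rests on 1 of 3 probe sets.

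Protein palmitoylation, the attachment of fatty acids that anchors synaptic proteins in membranes, was represented among the calls by Zdhhc3, the Golgi acyltransferase known to act on GABA-A receptor subunits. Its probe set 115864_at read 6.46, 6.63 and 6.08 in control and 5.68, 5.17 and 4.43 in labelled mutant arrays. It fell by 1.30, or 2.46-fold, and the difference was smaller in number 1 (-0.78) than in numbers 2 and 3 (-1.47 and -1.65). A second probe set, 110845_at, fell by 0.62 from a lower level, with 4.88, 4.80 and 4.99 in control and 4.37, 4.29 and 4.17 in labelled mutant arrays. Their adjusted p with the block was 0.0423 and 0.0489. The other tested probe sets of Zdhhc3 did not pass, with 115863_at lower by 0.31 without overlap and 109585_at at 0.03 with overlap. Of 17 tested genes of palmitoylation, Zdhhc3 alone passed with the block; 5 of the 17 were above 0 and the median difference was -0.10, beside 55.2% above 0 and a median of 0.02 over all 4617 tested genes.

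Fahd2a, Smim19, Tmem200a and Nbdy made up the rest of the falls. Fahd2a read 6.65, 7.05 and 6.99 in control and 6.06, 5.76 and 5.27 in labelled mutant arrays, and fell by 1.20, or 2.30-fold. Its difference ranged from -0.59 in number 1 to -1.73 in number 3. Smim19, a gene of a small integral membrane protein, read 7.98, 7.79 and 7.86 in control and 7.41, 6.71 and 6.54 in labelled mutant arrays, and fell by 0.99. For both genes the labelled mutant values were more spread than the control values, with an SD of 0.401 against 0.219 for Fahd2a and of 0.46 against 0.0993 for Smim19.

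Tmem200a, a transmembrane protein gene, read 7.04, 7.28 and 7.21 in control and 6.43, 6.22 and 6.31 in labelled mutant arrays, and fell by 0.86, or 1.81-fold, with an SE of 0.12. Nbdy, whose microprotein binds the messenger RNA decapping complex, read 8.78, 8.87 and 8.79 in control and 8.05, 8.26 and 8.17 in labelled mutant arrays. It fell by 0.65, or 1.57-fold, with differences of -0.73, -0.61 and -0.62 in the 3 numbers. The arrays of each group lay close together for both genes, and their adjusted p was 0.0423 with the block, and 0.124 and 0.143 without it. Of 12 tested genes of messenger RNA decapping and decay, Nbdy alone passed with the block, 6 were above 0 and the median was -0.03.

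Thbs4 was the 1 gene that rose with the block. It encodes thrombospondin 4, a secreted matrix protein of the family that astrocytes release to promote synapse formation. It read 5.21, 4.03 and 4.11 in control and 6.77, 5.76 and 5.32 in labelled mutant arrays. Number 1 was the highest of both groups, and within each number the labelled mutant array was higher, by 1.56, 1.73 and 1.21. The rise was 1.50, or 2.83-fold (limma adjusted p = 0.0423 with the block, 0.764 without). Thbs4 was the 1 gene tested of 42 listed extracellular matrix genes, so no other thrombospondin could be set beside it.

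The remaining genes named by size had values that did not overlap between groups, which the rule for naming required. Of all tested probe sets 8.81% met this condition. These remaining genes did not pass with all 12 arrays, with or without the block. With array weights, which let the fit count some arrays for less, 7 of them did: Coq2, Creb1, Mmab, Rell2, Tbl3, Tmem219 and Trmt61b were among the 20 calls of that setting. Lower in labelled mutant arrays were Tln2, a talin that couples integrins to actin, Trmt61b, a mitochondrial RNA methyltransferase, Coq2, Tbl3, a nucleolar protein of ribosome assembly, Shc2, a neuronal signalling adaptor, and Rell2, a RELT-like membrane protein. Coq2 read 9.36, 9.45 and 9.28 in control and 8.40, 8.26 and 8.06 in labelled mutant arrays, with a difference of -1.12 (adjusted p = 0.216, 0.068 with the block). Every labelled mutant value was well below every control value.

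Tln2 differed by -1.56, with control values of 7.48, 6.49 and 5.68 and labelled mutant values of 5.06, 4.82 and 5.11, so its difference ran from -2.43 in number 1 to -0.58 in number 3. Trmt61b was at 4.11, 4.06 and 4.18 in control arrays and at 2.83, 2.83 and 3.03, near background, in labelled mutant arrays, a difference of -1.22. Its 6 labelled mutant arrays, kainate included, read 2.78 to 3.03, and those of Tbl3 read 3.60 to 3.86. Both genes were thus under the limit of 4 in every labelled mutant array and were tested through their control arrays alone, so the size of their differences is not ranked against the others. Tbl3, Shc2 and Rell2 differed by -1.02, -0.97 and -0.92. Their adjusted p with the block was 0.134, 0.231 and 0.201.

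Higher in labelled mutant arrays, besides Creb1, were Mmab, Plek, Tmem219, Slc14a1, Tgfbr1, Dynll2 and Aqp4. Mmab, the adenosyltransferase that makes the cobalamin cofactor of mitochondrial methylmalonyl-CoA mutase, read 4.76, 3.25 and 3.65 in control and 6.20, 5.24 and 4.89 in labelled mutant arrays, a difference of 1.56 (adjusted p = 0.523, 0.083 with the block). As with Thbs4, number 1 was the highest array of both groups. Slc14a1, a urea transporter of astrocytes, was measured by 2 probe sets: 110850_f_at read 8.12, 8.78 and 8.13 in control and 9.25, 9.44 and 9.02 in labelled mutant arrays, and 110851_r_at read 7.70, 7.69 and 7.36 against 8.55, 8.46 and 8.19. Both were higher in labelled mutant arrays, by 0.89 and 0.82, without overlap. Tmem219, a membrane receptor for IGFBP3, was higher by 0.97, and Dynll2, a dynein light chain, by 0.52.

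**Figure D2:**
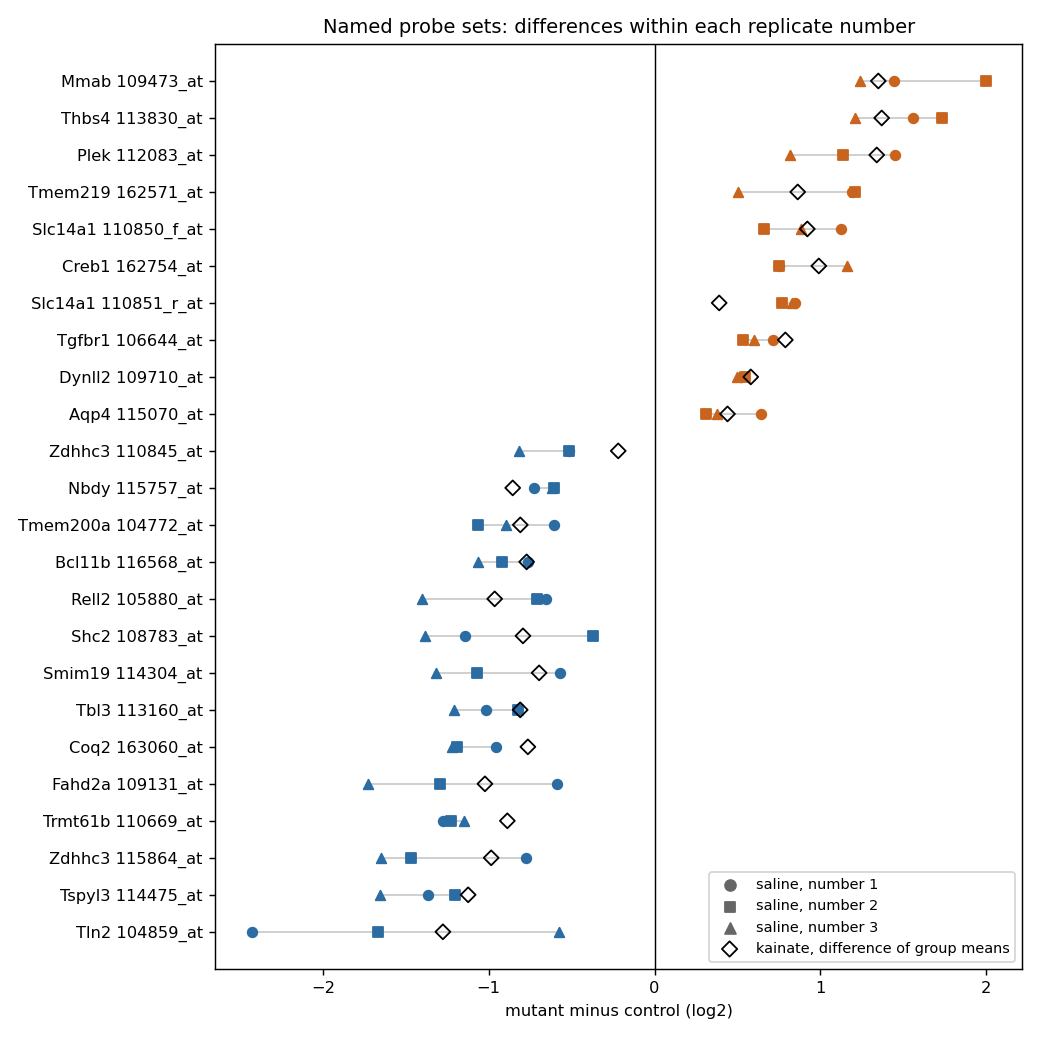
Labelled mutant minus control difference (log2) of the 24 named probe sets within replicate numbers 1, 2 and 3 of the saline arrays (filled markers, orange for a mean above 0 and blue below 0), and between the group means of the kainate arrays (open diamonds). All 3 filled markers lie on the same side of 0 in each row, which the rule for naming required of most of them, and every diamond lies on that side too.

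The kainate arrays entered the choice of these genes through the filter on low values and through the spread and block of the shared fit. Trmt61b and Tbl3, which passed the filter through control arrays alone, are left out of the next counts, a choice made after the data were seen. The other 22 named probe sets all had the same direction after kainate. For all 22 the control and labelled mutant kainate values did not overlap, beside 6.66% of the 5977 tested probe sets that met the same condition, over 4 on at least 3 arrays of each genotype, and did not overlap in the direction seen with saline. In the fit of all 12 arrays 22 of 22 had an unadjusted p under 0.05 in that direction after kainate, beside 3.88% of the 5977, whereas 4.67% of all tested probe sets had one in either direction. In a separate fit of the 6 kainate arrays, added after the data were seen, the number was 20 of 22, beside 2.86%. After adjustment over all probe sets, 1 of the 22 passed after kainate without the block, and 3 with it, beside 4 (0.0632%) and 7 (0.111%) of all tested.

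Nbdy passed after kainate in both fits, with 8.74, 8.94 and 9.06 in control and 7.995, 8.07 and 8.11 in labelled mutant kainate arrays, a fall of 0.86 (limma adjusted p = 0.0196, 0.00366 with the block). Tspyl3 passed with the block, with 7.81, 7.62 and 7.47 against 6.92, 6.43 and 6.18, a fall of 1.12 (0.00366; 0.285 without). Tmem200a fell by 0.81 (0.0297 with the block, 0.0503 without). For these 3 genes both calls come from 1 fit of 12 arrays, which shares its spread and block between treatments. In the 6 kainate arrays alone with the block none of the 3 passed, with an adjusted p of 0.0979 for Nbdy and Tspyl3 and of 0.114 for Tmem200a. Bcl11b and Fahd2a were lower by 0.77 and 1.02 after kainate, each with an adjusted p of 0.0677 with the block.

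Over all probe sets with an unadjusted p under 0.01 with saline, 69 of 74 (93.2%) had the same direction after kainate, beside 52.4% of all tested. In that direction 46 (62.2%) had an unadjusted p under 0.05 after kainate, beside 3.76% of all tested. With separate fits of the 6 saline and the 6 kainate arrays, 57 probe sets (0.9%) had an unadjusted p under 0.01 with saline. The shares were then 56 of 57 (98.2%) and 32 of 57 (56.1%, beside 2.79%). Among probe sets over 4 on at least 3 arrays of each genotype, the same direction was seen for 65 of 69 in the fit of 12 arrays and for 52 of 53 with separate fits. Over all 6334 probe sets the correlation of both differences was r = 0.305 (Spearman 0.149), again over probe sets that are not independent. Arrays of the same number resembled each other across treatments, and the part of this resemblance in the shared direction was not tested.

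The genotype difference itself was then compared between treatments, and no probe set passed (limma interaction, 0 of 6334, percent called 0). At an unadjusted p under 0.05 there were 147 (2.32%), and with the block 566 (8.94%), also with 0 passing. Among the named probe sets the widest gap between treatments was that of Slc14a1 110851_r_at, at 0.82 with saline and 0.39 after kainate, followed by Zdhhc3 110845_at, at -0.62 and -0.22. For both the adjusted p of the gap was 1.00 without the block, and it was 0.571 and 0.545 with it.

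**Figure D3:**
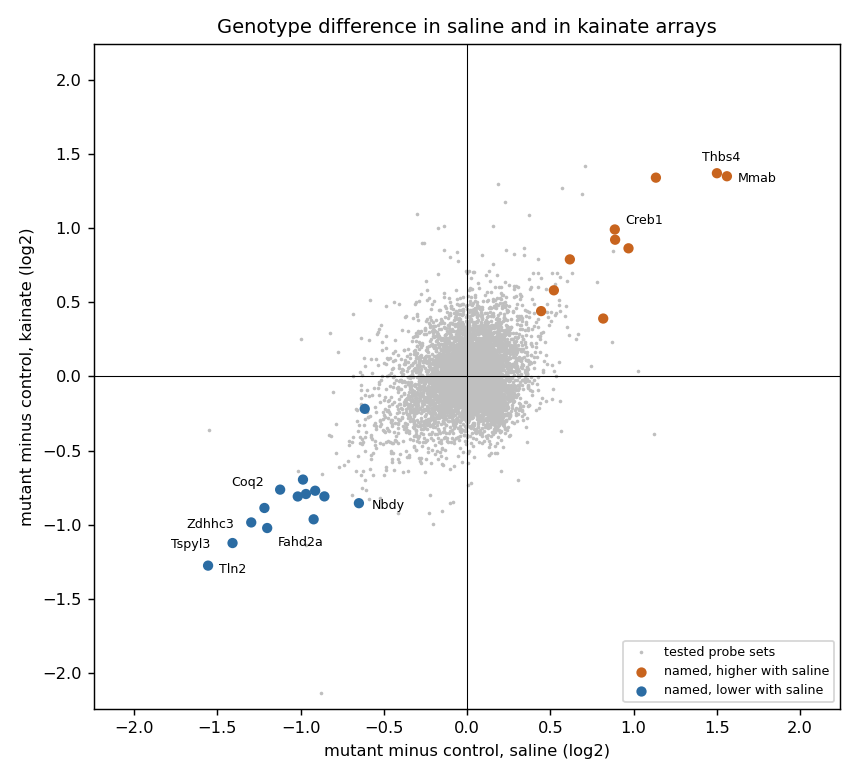
Labelled mutant minus control difference (log2) with saline on the horizontal axis and after kainate on the vertical axis, for all 6334 tested probe sets (grey) and the 24 named ones (orange, higher with saline; blue, lower). Named probe sets lie at the lower left and the upper right of the plot, and the grey cloud is centred on 0 with r = 0.305.

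A fit of the 6 saline arrays alone with the replicate number as a block called 85 probe sets of 76 genes, 1.34% of those tested, 66 lower (1.04%) and 19 higher (0.3%). This fit has few residual degrees of freedom, and without the block the same 6 arrays gave 1 call, Trmt61b. The size of the 85 differences ran from 0.36 to 1.56 with a median of 0.64, and 59 of the 85 had values that did not overlap. After kainate 82 of 85 (96.5%; 80 of 83 without Trmt61b and Tbl3) had the same direction and 38 (44.7%) an unadjusted p under 0.05 in that direction in the 6 kainate arrays alone. None of the 85 passed in the 6 kainate arrays with the block, where no probe set of the 6334 passed. Without the block, 219 (3.46%) had an unadjusted p under 0.05 in those 6 arrays.

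Some of the 85 were picked for description after their values were seen. Nos1, the neuronal nitric oxide synthase, differed by -0.61, Homer2, a scaffold of group I metabotropic glutamate receptors, by -0.63, and Mchr1, the receptor of melanin-concentrating hormone, also by -0.63. Dclk1, a microtubule-associated kinase, was seen by 2 probe sets (-0.79 and -0.45). Epha7, an ephrin receptor, differed by -0.65 and Lsamp, a neuronal adhesion protein, by -0.64. Hrk, a BH3-only activator of apoptosis in neurons, differed by -0.68, from a mean of 6.51 to 5.83. For Homer2 and Mchr1 the values did not overlap, and for Nos1, Epha7 and Lsamp they did.

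Further genes picked from among the 85 in the same way are given next. Acsl4, which activates arachidonate, differed by -0.80, Acss2, the nuclear and cytosolic acetyl-CoA synthetase, by -0.53, Cpt1c, the neuronal carnitine palmitoyltransferase of the endoplasmic reticulum, by -0.41, and Plpp6, a phosphatase of isoprenoid diphosphates, by -0.69. Tfrc, the transferrin receptor that carries iron into cells, differed by -0.59. After kainate the difference of Plpp6 was -0.80, whereas those of Acsl4, Acss2 and Cpt1c were -0.10, -0.05 and -0.09. Acsl4 was then near the limit of 4 in both groups, at 4.15, 3.91 and 4.17 in control and 3.99, 3.96 and 3.96 in labelled mutant arrays. A fall of this gene could therefore hardly be measured after kainate. Cyp4f14, a fatty acid hydroxylase, was higher by 0.60.

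Outside the largest 10 in each direction, the next probe sets by size among those that met the same conditions were Bcl11b, which had passed with the block, Spty2d1 109387_f_at (-0.88), a histone chaperone gene, and Kptn (-0.87), a regulator of mTORC1. Spty2d1 was lower by a larger amount after kainate, -2.14. Outside the conditions for naming were probe sets in which 1 array set the mean. Ywhaq 164627_r_at, a 14-3-3 protein, was 1.12 higher by group mean because the labelled mutant array of number 3 read 6.42, whereas the other 5 saline arrays read 3.43 to 3.999.

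Astrocyte markers were all above 0. Of 30 listed marker genes 16 were tested, all 16 were higher by mean in labelled mutant arrays, beside 55.2% of all tested genes, and the median difference was 0.19, beside 0.02. None passed, with or without the block, and 3 had an unadjusted p under 0.05 on the higher side, beside 1.65% of all tested genes. The median was 0.30, 0.27 and 0.18 in numbers 1, 2 and 3 and 0.19 after kainate, when 13 of the 16 were above 0. Values did not overlap for 5 of the 16, beside 5.02% of all tested genes on the higher side. Like the other gene lists here, this list was drawn up with earlier results of these data known, so its shares are descriptions.

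Aqp4, the water channel of astrocyte endfeet, read 10.30, 10.47 and 10.30 in control and 10.94, 10.78 and 10.68 in labelled mutant arrays, a difference of 0.44 (limma adjusted p = 0.523). Mlc1, a membrane protein of the same endfeet, was higher by 0.36, Sox9, a glial transcription factor, by 0.29 and Ednrb, the endothelin B receptor, by 0.27. Slc1a2, the main glutamate transporter of astrocytes, differed by 0.17 in each of the 3 numbers. The mean level over the 16 genes was 8.42, 8.85 and 8.82 in control and 8.67, 9.11 and 8.95 in labelled mutant arrays. The shift of this mean was small and was seen within each number. Of the 16 genes, 9 were above 0 in all 3 numbers, beside 16.9% of all tested genes. Cd44, a reactive glia marker, was higher by 0.44 without overlap, and 2 of 22 listed reactive glia genes were tested.

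Among the lists of cell classes and regions, the 5 tested microglia markers had the largest median. Of 21 listed genes 5 were tested, all 5 were above 0 in each of the 3 numbers, and the median was 0.60 (0.72, 0.55 and 0.30 in numbers 1, 2 and 3; 0.67 after kainate). Plek, pleckstrin of haematopoietic cells, read 4.17, 4.59 and 3.95 in control and 5.62, 5.73 and 4.77 in labelled mutant arrays, a difference of 1.13. Tgfbr1, a TGF-beta receptor, read 7.68, 7.65 and 7.37 against 8.40, 8.19 and 7.97, a difference of 0.62. For both genes the groups did not overlap.

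Olfml3 and Siglech, 2 further genes of resident microglia, were higher by 0.60 and 0.56, also without overlap, and Tmem119, another such gene, by 0.17 with overlap. None of the 5 passed in the fit of 12 arrays, and 3 had an unadjusted p under 0.05, beside 1.65% of all tested genes on the higher side. The 4 genes without overlap, Plek, Tgfbr1, Olfml3 and Siglech, stand beside 5.02%. The list was drawn up with earlier results of these data known, so its median and this share are not independent support. The mean level over the 5 genes was 5.94, 6.04 and 5.87 in control and 6.76, 6.63 and 6.30 in labelled mutant arrays. In tissue RNA, more or fewer cells of a type and more or less RNA of these genes in each cell cannot be told apart.

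Principal neuron markers lay on both sides of 0. Of 28 listed genes 9 were tested, 4 were above 0 and the median was 0.00, with a mean level of 9.10 to 9.18 in control and 8.82 to 9.09 in labelled mutant arrays, well above the limit of 4 for testing, as the labelled tissue holds these cells. Slc17a7, the vesicular glutamate transporter of these cells, differed by 0.07, Nptx1, a secreted pentraxin, by 0.10 and Chn1, a Rac regulator, by 0.06. Slc17a6, another vesicular glutamate transporter, differed by -0.36, and Neurod2, a neuronal bHLH factor, by -0.25, both with overlap; after kainate their differences were -0.54 and -0.56. Bcl11b, described above, alone of the 9 passed with the block. Fibcd1, a membrane receptor gene enriched in CA1 pyramidal cells, differed by -0.56, without overlap, and by -0.49, -0.55 and -0.66 in the 3 numbers and -0.67 after kainate. It was called in the fit of the 6 saline arrays with the block (adjusted p = 0.0175) and not in the fits of 12 arrays.

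Other cell classes and neighbouring regions had smaller medians. The median was 0.05 for 4 tested interneuron genes, -0.03 for 8 oligodendrocyte genes, 0.04 for 6 vascular genes and 0.12 for 4 genes of thalamus and striatum. Choroid plexus genes, which come with tissue at the edge of the dissection, had a median of -0.07, but of -0.87, -0.08 and 0.54 in numbers 1, 2 and 3. The 3 choroid plexus genes tested of 19 listed therefore differed between pools with no shared direction, and their part in other differences was not tested.

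**Figure D4:**
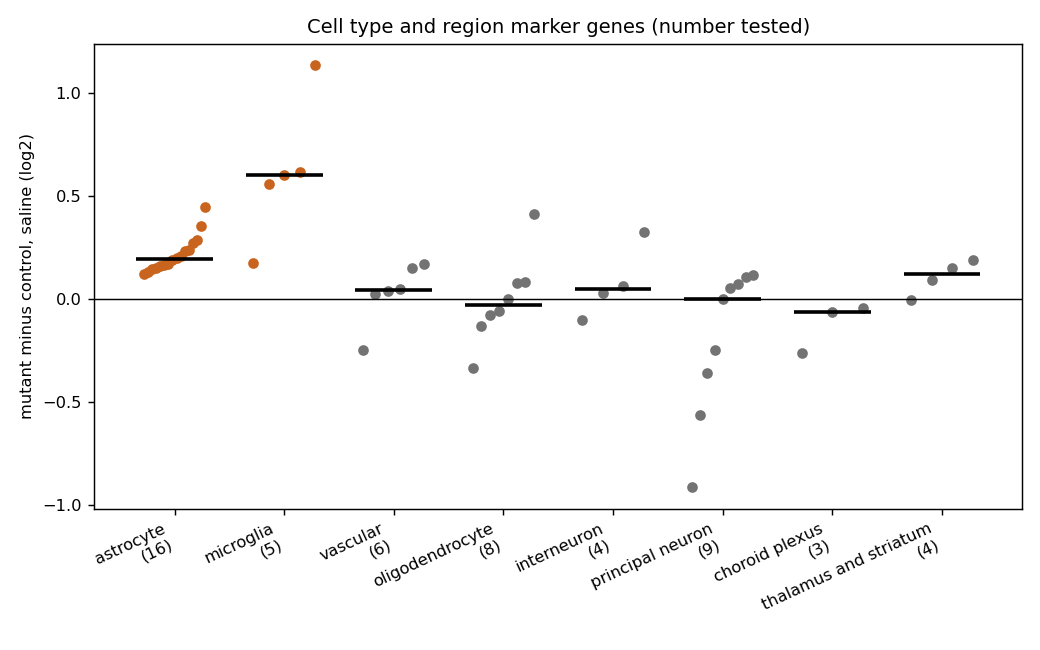
Labelled mutant minus control difference (log2, saline arrays) of each tested marker gene, 1 probe set per gene, by cell class or region, with the number tested in brackets and black bars at the medians. All 16 astrocyte and all 5 microglia genes (orange) lie above 0; the medians of the other groups (grey) lie between -0.07 and 0.12.

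No gene of the CREB pathway passed, with or without the block. Of 47 listed family members, coactivators and kinases 22 were tested, 13 were above 0 and the median was 0.03. Crebbp and Ep300, which encode the acetyltransferase coactivators CBP and p300, differed by 0.07 and 0.06. Crtc2 and Crtc3, coactivators released by calcium and cAMP signals, differed by 0.00 and 0.02, and Crtc1, the neuronal form, by -0.22 with overlap. The kinase gene Camk4 differed by 0.04. Creb1 alone had an unadjusted p under 0.05, 1 of 22 beside 1.65% of all tested genes on the higher side and 2.75% on the lower.

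Genes known as CREB targets were mostly below 0. Of 39 listed genes 8 were tested, 2 were above 0 and the median was -0.18 (-0.19, -0.15 and -0.20 in the 3 numbers; -0.20 after kainate). Nos1 differed by -0.61, Nr4a2, an orphan nuclear receptor of the immediate early class, by -0.44, Vgf, a secreted neuropeptide precursor, by -0.35, and Nr4a3 by -0.25. None passed with 12 arrays, with or without the block, and 1 had an unadjusted p under 0.05 on the lower side, beside 2.75% of all tested genes. Homer1 and Ppargc1a, also listed, differed by -0.08 and -0.12. Most listed targets, among them Bdnf and Fos, are not among the tested genes. Only 14 of the 39 had a probe set on these arrays.

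Immediate early factors at rest had a median of -0.23 over 8 tested genes, 5 of them below 0. Maff, a small Maf factor, differed by -0.30, Csrnp1 by -0.28 and Fosl2, a partner of Jun in AP-1, by -0.21. For Csrnp1, Nr4a3 and Fosl2 the values did not overlap between groups, 3 of 8 beside 4.81% of all tested genes on the lower side. None passed, and Klf6 was higher by 0.33 with overlap.

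Genes listed for sterol and isoprenoid synthesis and transport were mostly lower. Most belong to the mevalonate pathway or its feedback control by SREBP, whereas Coq2 serves ubiquinone synthesis and Mmab makes a cobalamin cofactor. Of 37 listed genes 13 were tested, 9 were below 0 and the median was -0.27 (-0.17, -0.31 and -0.40 in numbers 1, 2 and 3; -0.18 after kainate). The difference was below 0 in all 3 numbers for 8 of the 13, beside 17.1% of all tested genes, and 4 of the 13 did not overlap on that side, beside 4.81%. Coq2 and Stard4 are among these 4. The list was drawn up with earlier results of these data known, so these shares are not independent support. None of the 13 passed in the fit of 12 arrays without or with the block. With array weights Coq2 and Mmab passed (limma adjusted p = 0.0156 and 0.0492), and both were also called without replicate number 1.

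Coq2, which joins an isoprenoid tail to the ubiquinone ring, was the lowest, at -1.12. Stard4, a carrier of cholesterol between membranes, differed by -0.55, and Insig1, the sterol-regulated anchor of SCAP, by -0.48, both without overlap. Cyp51 and Sc5d, late enzymes of cholesterol synthesis, differed by -0.44 and -0.39, and Hsd17b7, another of them, by -0.38. The smallest of these differences was in number 1 for all but Hsd17b7. Mmab, which is known to share a promoter region with the mevalonate kinase gene Mvk, went the other way at 1.56.

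**Figure D5:**
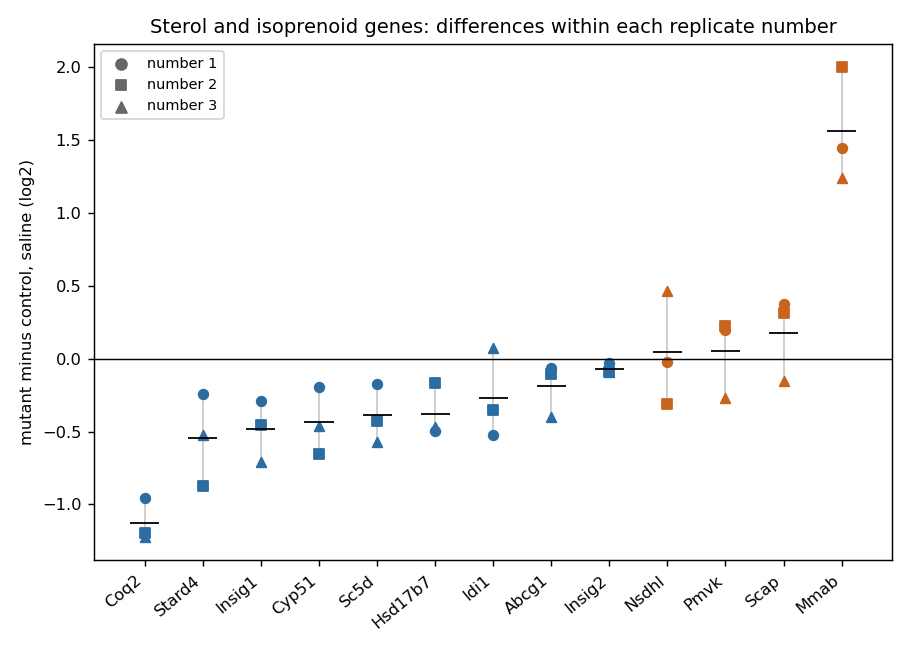
Labelled mutant minus control difference (log2, saline arrays) of the 13 tested sterol and isoprenoid genes within replicate numbers 1, 2 and 3 (marker shapes), with black bars at the means. Blue genes have a mean below 0 and orange genes above 0; 8 of the 9 blue genes lie below 0 in all 3 numbers, and Mmab stands apart at 1.56.

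Promoters of the named genes were searched for the cAMP response element as described. Of 22 named genes 15 had a promoter in the RefSeq table, and 2 of the 15 (13.3%), Fahd2a and Tmem219, held the full element, beside 136 of 3750 tested genes with a promoter (3.63%). Tmem219 was higher and Fahd2a lower in labelled mutant arrays, so the genes with the full element did not share a direction. The short form was in 6 of the 15 (40%), beside 36.6% of the tested genes.

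Of the 60 genes that were lower in the fit of 6 saline arrays with the block, 49 had a promoter, and 3 of these (6.12%) held the full element, Fahd2a and Snapc5 shown above and Kptn, and 29 (59.2%) the short form. Of the 16 that were higher 12 had a promoter, with the full element in 1 (8.33%) and the short form in 3 (25%). Of the 3750 tested genes with a promoter, 3.63% held the full element and 36.6% the short form. All these shares count a gene if any of its windows held a match. Counted by window instead, over all 32851 windows of the table, 1.79% held the full element and 20.8% the short form, which are not like measures. These counts are descriptions of letters in a fixed window; no test was made, and a window without a match says nothing of binding.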

How the data were processed

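The 12 arrays were Affymetrix MG-U74B arrays. The authors deposited log2 values made with GCRMA in R 2.4.1, per the submitters' processing notes; its settings and the build are not stated in the labels, and no scanner files were read. Of 12477 entries 66 were control probe sets. The platform annotation gave 10581 probe sets 1 gene symbol, 178 several and 1652 none, and no gene was named from several. limma 3.58.1 in R 4.3.3 (lmFit, eBayes with an intensity trend) was fitted to all 12 arrays with 1 mean per group, with Benjamini-Hochberg adjustment over 6334 probe sets; the calculation was tested on simulated data. The number of arrays limits the precision. Without the block, p-values rest on the spread between pools of a group, the offset of number 1 included. With the block they rest on the spread left after an effect of the number is removed. In the fits of 12 arrays either spread is shared over saline and kainate arrays.

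Deviations from the group means correlated above 0.1 for each of the 18 pairs that share a number across groups (r 0.361 to 0.881). Between number 1 and the others they correlated at -0.782 to -0.477. All 12 pairs of number 2 with number 3 across groups were above 0.1 too (0.309 to 0.583). The check thus sets number 1 apart and cannot show that numbers 2 and 3 pair the arrays. Values with the number as a block are given beside those without it, and calls that need the block depend on this choice.

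Named were probe sets with 1 symbol that passed in either fit, the 10 with the largest difference in each direction among those with an unadjusted p under 0.01, no overlap and the same sign in each number, Creb1 and Crem, and list members with the largest differences. Genes of the 85 probe sets called with 6 arrays were picked for description after their values were seen, as were Kdm5d and Ywhaq. Lists used 1 probe set per gene, the one with the highest mean. Many listed genes were untested because these arrays hold no probe set for them. A probe set was present for 17 of 30 astrocyte, 6 of 21 microglia, 5 of 22 reactive glia and 7 of 42 extracellular matrix genes. The members and the lists were chosen with earlier results of these data known. Alternatives were the block, other scalings, filters, variance models and left-out arrays; the separate fits were added after the data were seen.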

Additional observations from a re-analysis of the deposited data

How the results depend on the processing

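The count of 0 probe sets passing with saline (246 at an unadjusted p under 0.05) became 9 with the replicate number as a block, 10 with median centring and the block, 1 (Tspyl3) with quantile normalization and the block, 1 (Trmt61b) and 85 in the 6 saline arrays without and with the block, and 20 (3 higher, 17 lower) with array weights, among them Coq2, Creb1, Mmab, Rell2, Tbl3, Tmem219 and Trmt61b. Leaving out arrays gave 0 to 5 calls: 5 (Coq2, Fahd2a, Mmab, Smim19 and Tspyl3) without replicate number 1, 1 (Trmt61b) without number 3, and 0 without number 2 or any single saline array. It stayed 0 with quantile normalization or centring without the block, no filter, a filter over 6 and no intensity trend. Probe sets with 1 sign in all 3 numbers fell from 2072 to 1281 with the filter over 6, which tests fewer. The mean within-number SD was 0.235 with no filter. Of the named probe sets 1 passed after kainate in the fit without the block, 3 with it, 2 with quantile normalization and 0 with centring. No named difference changed sign in any of up to 20 alternatives. All named probe sets had saline values without overlap, most of them by the rule for naming. Left-out arrays, the block, filters and variance models therefore could not reverse a sign, and only other scalings could. List medians moved by more than their spread in 52 comparisons and by less in 364; those of astrocyte (0.16 to 0.25), microglia (0.48 to 0.72) and sterol genes (-0.38 to -0.13) kept their sign.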

Other observations

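Gene groups of neuronal excitability and of basic cell functions were also described at rest. Of 17 tested voltage-gated channel genes 7 were above 0 and the median difference was -0.01; Scn4b, a sodium channel beta subunit, was the lowest at -0.58 (-0.53 after kainate), with overlap, and Kcnip3 the highest at 0.17. Of 9 transmitter receptor genes 1 was above 0, beside 55.2% of all tested genes, 5 were lower in all 3 numbers, beside 17.1%, and the median was -0.10, with Grm5, a metabotropic glutamate receptor, at -0.45 and Gabra4, a GABA-A receptor subunit, at -0.22. The median was 0.04 for 14 respiratory chain genes, 0.03 for 18 mitochondrial ribosome genes and -0.05 for 3 proteasome genes. None of these genes passed, with or without the block.

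Among 13 tested genes of nucleosome assembly and of the neural SWI/SNF complex, 4 were above 0 and the median was -0.03. Tspyl3 and Bcl11b passed with the block, and Phf10, a subunit of the progenitor form of the complex, was lower at -0.36 without overlap, but -0.00 after kainate. Bcl11a, the close relative of Bcl11b, differed by -0.02, and Tspyl1 and Tspyl2, relatives of Tspyl3, by -0.24 and 0.23.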
